A study of Mus musculus with 18 samples.

Results

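Keratins and vimentin are the intermediate filament proteins that distinguish epithelial from mesenchymal cells, and 10 of their genes were followed here in MPC3, a mouse prostate cancer cell line: Krt5, Krt7, Krt8, Krt14, Krt15, Krt17, Krt18, Krt19, Krt80 and Vim. They were chosen by symbol, as luminal and basal keratins together with vimentin, and all 10 were found among the 47643 genes of the count table. The study compared 18 polyadenylated RNA libraries in 3 groups of 6: control cells, whose titles carry the word plko, and cells with either of 2 short hairpin RNAs against Rnf185, named shRNF185.1 and shRNF185.3. Rnf185 encodes a ubiquitin ligase of the endoplasmic reticulum membrane. All groups are MPC3 cells, and each of the 3 batches in the labels holds 2 libraries of every group. The labels do not say whether the libraries of a group came from separate infections or cultures, so the p-values measure the spread between these libraries only.

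Keratin filaments are built from obligate pairs of an acidic type I chain and a basic type II chain. In the prostate, luminal cells are known for the pair Krt8 (type II) and Krt18 (type I), often with Krt19 (type I), and basal cells for Krt5 (type II) and Krt14 (type I), with Krt15 and Krt17 (both type I). Krt7 and Krt80 are type II keratins of simple and differentiating epithelia. Vim encodes vimentin, a type III filament protein that polymerises without a partner and is typical of mesenchymal cells and of many epithelial cells in culture.

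Rnf185 itself was lower in every hairpin library than in every control library (log2 fold change -2.63 with each hairpin). Total counts ranged from 22027395 to 43379662 per library, so a floor of 3 counts lay between 0.0701 and 0.134 CPM, the deposited count scaled to library size, for counting error only. The labelled cell type was compared with marker lists. Of 11 luminal prostate markers 7 reached a mean of 1 CPM in control, among them Krt8, Krt18, Cdh1, Hoxb13 and Foxa1, while Pbsn had 0 counts in all libraries and Epcam had 43 counts over all 18. Of 9 basal markers 6 reached 1 CPM in control, and Krt5 was below the floor. Of 9 fibroblast and mesenchyme markers 7 reached 1 CPM, and Thy1 was below the floor. Of 3 leukocyte markers Ptprc and Cd3e had 13 and 0 counts in all, while Cd68 was at 3.65 CPM in control and fell with shRNF185.1 (log2 fold change -0.68, edgeR adjusted p 0.0117; -0.47 and 0.0767 with shRNF185.3). Summed over each list, the libraries ranged from 1966 to 2249 CPM in control for luminal markers, from 1316 to 1661 with shRNF185.1 and from 1398 to 1495 with shRNF185.3; the corresponding ranges were 154 to 224, 116 to 166 and 123 to 168 CPM for basal markers, and 3448 to 4463, 3888 to 4595 and 4280 to 5109 CPM for mesenchymal markers. The luminal sum is mostly Krt8 and Krt18 themselves and the mesenchymal sum mostly Vim. Among the other mesenchymal markers Col1a1 rose by 1.29 on the log2 scale with shRNF185.1 and by 2.19 with shRNF185.3 (edgeR adjusted p 0.00223 and 1.90e-05) and Pdgfrb by 0.36 and 0.58 (adjusted p 0.00115 and 9.29e-06), while Dcn fell by 2.11 with shRNF185.1 (adjusted p 2.03e-05) and was at -0.49 with shRNF185.3 (adjusted p 0.182). Col1a2 went opposite ways, at -0.56 with shRNF185.1 and 0.55 with shRNF185.3 (adjusted p 0.00306 and 0.00379). Pdgfra and Acta2 rose with shRNF185.3 (0.46 and 1.98, adjusted p 9.31e-05 and 0.00256) and were at -0.00 and 0.85 with shRNF185.1 (adjusted p 0.997 and 0.164). Of the basal markers that are no keratins, Itga6 fell by 0.54 and 0.48 with the hairpins in turn (adjusted p 0.00237 and 0.00611) and Itgb4 by 1.44 and 1.45 (adjusted p 0.00223 and 0.00240). Trp63 went the other way and rose by 0.64 and 0.76 (adjusted p 0.0195 and 0.00702). Col17a1 was at -0.08 with shRNF185.1 (adjusted p 0.78) and rose by 0.585 with shRNF185.3 (adjusted p 0.0167). Lamb3 was at 0.08 and 0.22, called with neither (adjusted p 0.835 and 0.533). The part of such cells or states in the keratin results was not tested. In such bulk RNA, fewer cells of a type and less RNA per cell cannot be told apart.

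Krt8 and Krt18, the members that lay below all controls in every library of both hairpins, lie on mouse chromosome 15, 23.7 kb apart, on opposite strands: Krt8 at 101996698 to 102004482 (minus) and Krt18 at 102028180 to 102032027 (plus, GENCODE M21, GRCm38). Krt5, Krt7 and Krt80 lie on the same chromosome, Krt14, Krt15, Krt17 and Krt19 on chromosome 11, and Vim on chromosome 2 at 13573927 to 13582826 (plus). An annotated gene on the other strand covers 5.16% of the exonic bases of Krt8 and 4.11% of those of Krt80, and reads there cannot be told apart unless strand was used in counting, which is not given in the sources used here. The stretches before their RefSeq start sites (GRCm38.p6) that lie outside annotated exons are shown because both genes of the pair fell. The Krt8 stretch is chr15:102004483-102004592 on the minus strand, and the Krt18 stretch is chr15:102027966-102028179 on the plus strand. The Krt8 stretch runs from 250 to 141 bases before the RefSeq start and the Krt18 stretch from 250 to 37. Bases nearer each start were not searched. Each is written 5′ to 3′ on the strand of its gene, and capitals mark the only match found to any motif searched.

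Krt8: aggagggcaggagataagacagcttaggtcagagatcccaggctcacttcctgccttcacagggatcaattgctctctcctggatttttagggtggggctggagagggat

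Krt18: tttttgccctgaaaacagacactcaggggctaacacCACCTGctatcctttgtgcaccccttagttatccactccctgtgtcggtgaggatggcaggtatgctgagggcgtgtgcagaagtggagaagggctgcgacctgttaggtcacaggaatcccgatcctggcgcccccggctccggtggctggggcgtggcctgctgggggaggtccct

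Motifs were searched on both strands: the E-box CACCTG, which ZEB and Snail repressors can bind, the AP-1 site TGANTCA, the GC box GGGCGG and the TATA box TATAAA. The Krt18 stretch of 214 bases held 1 E-box, which begins 214 bases before the RefSeq start. An E-box of this form occurs in 15.2% of 32851 mouse promoter windows of the same length and position, which were not trimmed at exons. The Krt8 stretch of 110 bases held 0 matches to any of the 4, which says nothing about the bases nearer the start. In windows of that length and position they occur in 8.0%, 2.8%, 11.6% and 5.6% of promoters, in the order above. These letters are a description and say nothing about binding. RefSeq promoters were matched for 6 of the 10 members.

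MPC3 cells expressed a luminal-type keratin set together with high vimentin. Per kilobase of exonic length, which allows genes to be compared, Vim stood at 675 ± 73.4 CPM per kb in control (SD, n = 6 for each value here), Krt8 at 611 ± 50.1, Krt18 at 246 ± 19.2 and Krt19 at 239 ± 141. Krt14, the basal type I keratin, was at 15.1 ± 3.65, Krt80 at 2.82 ± 0.769, Krt15 at 0.808 ± 0.456 and Krt17 at 0.124 ± 0.0691 CPM per kb. Vim and Krt8 did not differ beyond their spread, nor did Krt18 and Krt19. The place of Vim depends on the length used: with its principal transcript of 2193 bases in place of 4743 exonic bases it was at 1460 ± 159 CPM per kb, above Krt8. Krt8, Krt18 and Krt19 together made up 98.2% ± 0.521 of the RNA of the 9 keratins per length in control, 98.1% ± 0.617 with shRNF185.1 and 98.05% ± 0.275 with shRNF185.3. Vim ranked 8th and Krt8 98th by mean CPM among the 14309 genes tested.

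Krt5, the partner of Krt14 in basal cells, and Krt7 were near the limit of detection. Krt5 had 1 count over the 6 control libraries, 2 with shRNF185.1 and 7 with shRNF185.3, against upper 95% limits (exact Poisson, counting error only) of 0.0300, 0.0444 and 0.0910 CPM. Krt7 had 10, 7 and 10 counts. Krt17 had 38, 24 and 38 counts, or 0.204, 0.148 and 0.240 CPM over each group. These 3 members did not pass the filter on low counts and were not tested, and a difference between groups was not detectable at this depth. The other 7 were tested.

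**Figure D1:**
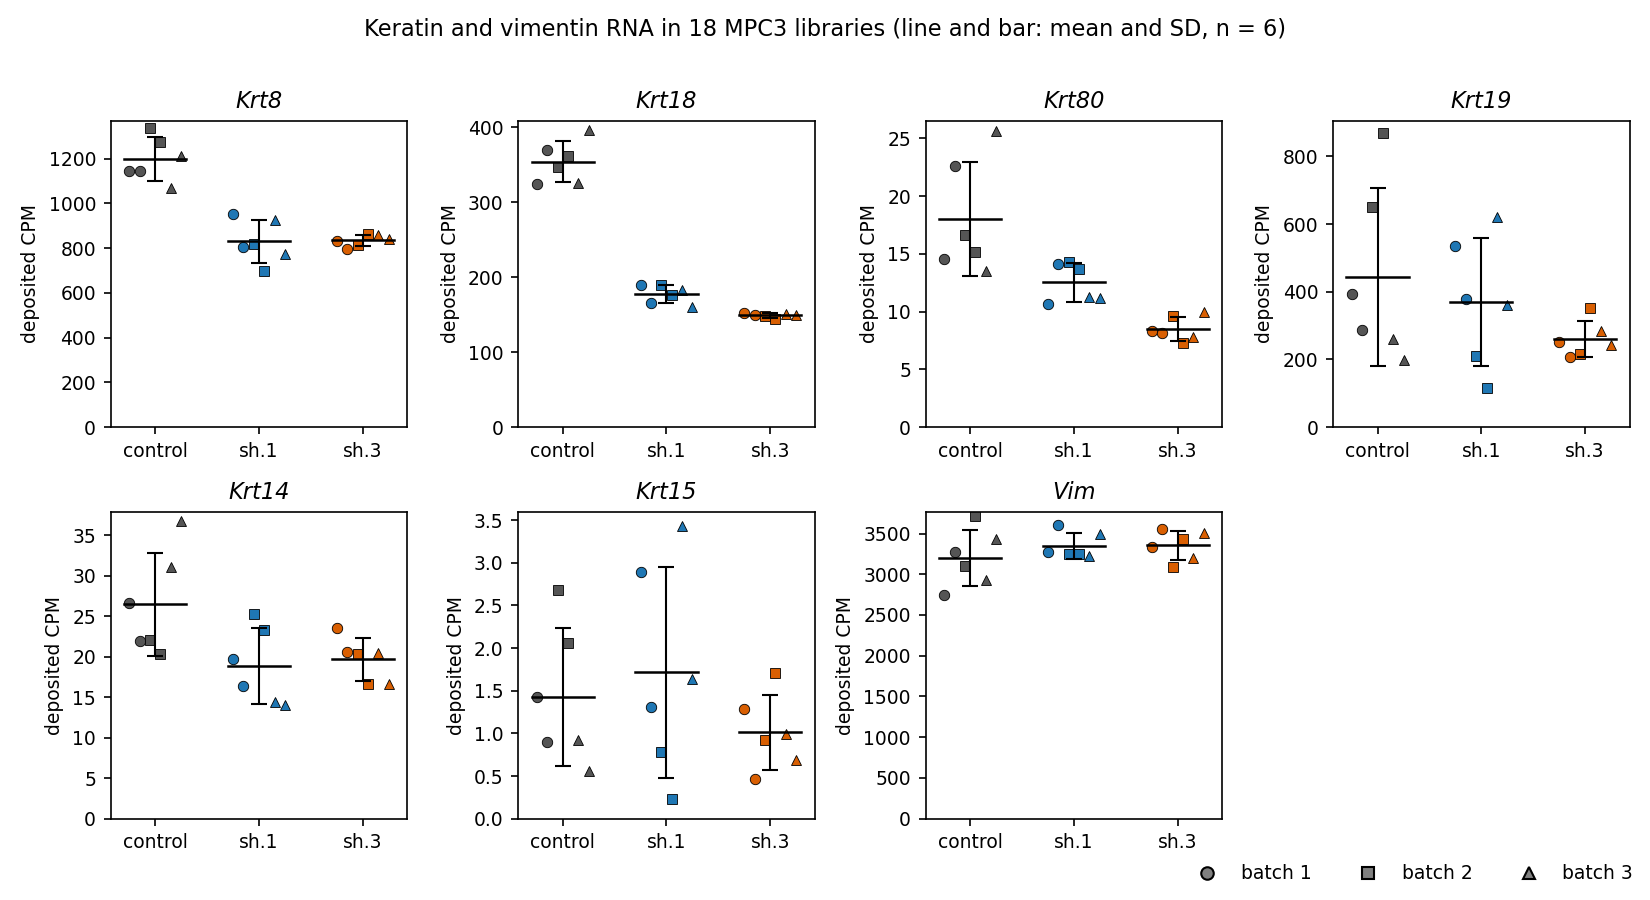
Deposited CPM (vertical axes, linear from 0) of the 7 tested members in each library of the control group, of shRNF185.1 (sh.1) and of shRNF185.3 (sh.3). Each point is a library with its batch as shape, and lines and bars give the mean and SD of 6. Krt8 and Krt18 sit below all controls with both hairpins, Vim overlaps in all groups, and Krt19 and Krt15 scatter widely within the control and shRNF185.1 groups.

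The comparison of each hairpin with control asked which of these filament genes change when Rnf185 is lowered. With shRNF185.1, 4 of the 7 tested members fell (Krt8, Krt18, Krt80 and Krt14) and 0 rose, where 28.9% of all 14309 genes were called, 14.6% higher and 14.3% lower. With shRNF185.3, 3 fell (Krt8, Krt18 and Krt80) and 0 rose, where 27.3% of all genes were called, 14.2% higher and 13.1% lower. Calls are at an adjusted p under 0.05 in edgeR's quasi-likelihood test with Benjamini-Hochberg adjustment over all genes, as for each adjusted p below. The median log2 fold change over all genes was -0.02 with either hairpin. Both comparisons use the same 6 control libraries.

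Krt18, the luminal type I keratin, fell most. Its lowest, median and highest library values were 325, 354 and 396 CPM in control, 161, 180 and 190 CPM with shRNF185.1, and 144, 149.9 and 152 CPM with shRNF185.3. The 3 groups did not overlap, and the libraries of shRNF185.3 lay within a narrow band, at 149 ± 2.97 CPM against 354 ± 27.6 in control (SD, n = 6). The log2 fold change came to -0.997 (SE 0.05, adjusted p 2.34e-10) under shRNF185.1, compared with -1.25 (SE 0.05, adjusted p 1.53e-11) under shRNF185.3, which left 50.1% and 42.2% of the control level. Groups whose CPM ranges do not overlap were seen for 12.8% of all genes with shRNF185.1 and 13.3% with shRNF185.3. Taken batch by batch (1, 2, 3), Krt18 differed from control by -0.97, -0.96 and -1.06 on the log2 scale under shRNF185.1, and by -1.20, -1.28 and -1.25 under shRNF185.3.

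Krt8, the type II partner of Krt18, fell less. Its lowest, median and highest values were 1068, 1178 and 1338 CPM in control, 699, 813 and 952 CPM with shRNF185.1, and 796, 837 and 863 CPM with shRNF185.3. No hairpin library reached the lowest control, while the hairpins overlapped each other. The log2 fold change for shRNF185.1 was -0.53 (SE 0.07, adjusted p 1.43e-05), and for shRNF185.3 it was -0.52 (SE 0.07, adjusted p 1.87e-05). By batch, Krt8 differed by -0.39, -0.79 and -0.42 under shRNF185.1, and by -0.49, -0.64 and -0.42 under shRNF185.3. Of the 75-base windows of the Krt8 transcript 21.98% also occur in the pseudogene Krt8-ps, to which 89 to 252 counts per library were assigned, against 18020 to 54623 for Krt8.

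The type I and type II luminal chains fell by unequal amounts. The ratio of Krt18 to Krt8 per exonic length was 0.353 at its lowest, 0.401 at the median and 0.446 at its highest in control. Under shRNF185.1 it was 0.270, 0.281 and 0.343, whereas shRNF185.3 gave 0.227, 0.245 and 0.257. The 3 groups did not overlap in this ratio, which is a description with no test. When Krt19 and the other type I members are added, the ratio of type I to type II keratins was 0.809 ± 0.172 in control (SD, n = 6), 0.774 ± 0.165 under shRNF185.1 and 0.597 ± 0.0472 under shRNF185.3. In that sum control and shRNF185.1 covered much the same range, 0.650 to 1.12 and 0.554 to 0.996. Within a group a relation between the levels of Krt8 and Krt18 was neither shown nor excluded by 6 libraries: the Pearson r of their log2 CPM was 0.37 in control, 0.56 with shRNF185.1 and -0.28 with shRNF185.3 (exact permutation p 0.467, 0.253 and 0.596, adjusted 0.494, 0.303 and 0.596 over 18 relations), rho was 0.20, 0.77 and -0.26 (exact permutation p 0.714, 0.103 and 0.658, adjusted 0.714, 0.185 and 0.714), and r without the 2 libraries farthest from the median of Krt8 was 0.37, 0.65 and 0.71.

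**Figure D2:**
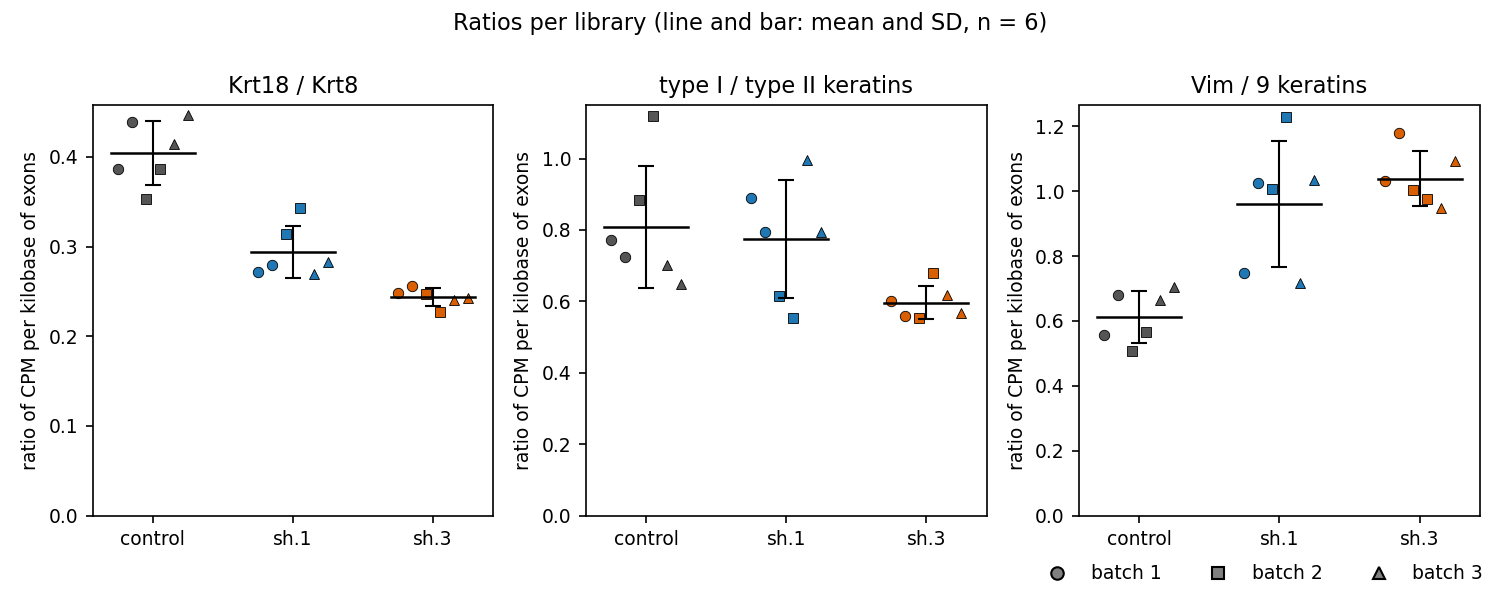
Ratios of CPM per kilobase of exonic length in each library (points, batch as shape), with mean and SD of 6, for Krt18 over Krt8, all 5 type I over all 4 type II members, and Vim over the sum of the 9 keratins. Krt18 over Krt8 separates the 3 groups without overlap, and Vim over keratins is higher in all hairpin libraries, from 0.717 upward, than in control, up to 0.705.

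Krt80, a type II keratin of low abundance, fell with both hairpins. Its lowest, median and highest values were 13.5, 15.9 and 25.6 CPM in control, 10.6, 12.5 and 14.3 CPM with shRNF185.1, and 7.31, 8.24 and 9.94 CPM with shRNF185.3. All libraries of shRNF185.3 lay below control, and 3 of 6 did so with shRNF185.1. The log2 fold change came to -0.52 (SE 0.14, adjusted p 0.00917) under shRNF185.1, compared with -1.08 (SE 0.15, adjusted p 1.92e-05) under shRNF185.3. The call with shRNF185.1 was lost without batch 1 (-0.49, adjusted p 0.0912) and without batch 3 (-0.39, adjusted p 0.0760). Here and below, a fit without a batch leaves out 2 of the 6 libraries of each group. At the same effect and spread a call is then harder to reach.

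Krt14, the basal type I keratin, was called lower with shRNF185.1 and missed the threshold with shRNF185.3. It ranged from 20.3 to 36.8 CPM in control with a median of 24.4, from 14.1 to 25.3 CPM with shRNF185.1 with a median of 18.01, and from 16.6 to 23.6 CPM with shRNF185.3 with a median of 20.4. All groups overlapped. The log2 fold change for shRNF185.1 was -0.49 (SE 0.16, adjusted p 0.0283), and for shRNF185.3 it was -0.42 (SE 0.16, adjusted p 0.0582), and the hairpins were not shown to differ (0.07, adjusted p 0.879). The change was uneven between batches, at -0.43, 0.20 and -1.24 under shRNF185.1, against -0.13, -0.20 and -0.87 under shRNF185.3. The call with shRNF185.1 was lost with the replicate number as a block (adjusted p 0.0629), with that block and a GC and length offset (0.0826), and with the libraries of a group and batch summed (0.161). Without batch 3 the log2 fold change was -0.11 (adjusted p 0.657) with shRNF185.1, and without batch 1 -0.52 (adjusted p 0.141). Without batch 2 it passed the threshold with shRNF185.3 as well (-0.53, adjusted p 0.0267). Of the 75-base windows of Krt14 5.71% are shared with Krt16, so reads of these paralogs can be split between them.

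Krt19, the type I keratin that can take the place of Krt18, was not called with either hairpin. Its lowest, median and highest values were 198, 340 and 868 CPM in control, 117, 369 and 622 CPM with shRNF185.1, and 207, 248 and 352 CPM with shRNF185.3. Its SD was 59.2% of the mean in control, 51.4% with shRNF185.1 and 20.4% with shRNF185.3, against 7.81%, 6.91% and 1.99% for Krt18. The log2 fold change came to -0.26 (SE 0.36, adjusted p 0.633) under shRNF185.1, compared with -0.77 (SE 0.37, adjusted p 0.129) under shRNF185.3. The direction changed with the batch: for batches 1, 2 and 3 Krt19 gave 0.42, -2.27 and 1.06 under shRNF185.1, against -0.55, -1.45 and 0.22 under shRNF185.3. Without batch 2, Krt19 was called higher with shRNF185.1 (0.74, adjusted p 0.0132).

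Krt15, a basal type I keratin of low abundance, was not called with either hairpin. It ranged from 0.565 to 2.69 CPM in control, from 0.233 to 3.44 CPM with shRNF185.1 and from 0.465 to 1.71 CPM with shRNF185.3, with 6 to 89 counts per library. The log2 fold changes were 0.26 (SE 0.46, adjusted p 0.712) and -0.48 (SE 0.48, adjusted p 0.5005). Without batch 2 it was called higher with shRNF185.1 (1.28, adjusted p 0.0165).

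Krt13, Krt15 and Krt19 lie side by side on chromosome 11, with 10.2 kb between Krt13 and Krt15 and 4.88 kb between Krt15 and Krt19. Their joint variation was examined within each group after their values were seen, and the permutation p-values treat the 6 libraries of a group as exchangeable although they form 3 batches of 2, so they do not account for batch. Across the 6 control libraries log2 Krt19 and Krt15 gave a Pearson r of 0.94 (exact permutation p 0.00694, 0.0313 after Benjamini-Hochberg adjustment over 18 relations) and a Spearman rho of 0.89 (exact permutation p 0.0333, adjusted 0.1). Across the 6 libraries of shRNF185.1 r was 0.99 (exact permutation p 0.00278, adjusted 0.0167) and rho 0.94 (exact permutation p 0.0167, adjusted 0.075). Without the 2 libraries farthest from the median of Krt19, r was 0.98 and 0.96. With shRNF185.3 r was 0.81 (exact permutation p 0.0542, adjusted 0.0955), rho was 0.89 (exact permutation p 0.0333, adjusted 0.1), and r fell to 0.25 without the 2 farthest libraries, so there it rests on them. Krt19 and Krt13 gave an r of 0.93 in control and 0.98 with shRNF185.1 (exact permutation p 0.00972 and 0.00139, adjusted 0.0333 and 0.0167), with rho at 0.83 and 1.00 (exact permutation p 0.0583 and 0.00278, adjusted 0.131 and 0.05), or an r of 0.62 and 0.999 without the 2 farthest libraries. With shRNF185.3 their r was 0.87 and rho 0.71 (exact permutation p 0.0292 and 0.136, adjusted 0.0719 and 0.204), and r was 0.34 without the 2 farthest. Krt15 and Krt13 gave an r of 0.87 in control, 0.96 with shRNF185.1 and 0.59 with shRNF185.3 (exact permutation p 0.0389, 0.00278 and 0.226, adjusted 0.0778, 0.0167 and 0.291). Their rho was 0.71, 0.94 and 0.49 (exact permutation p 0.136, 0.0167 and 0.356, adjusted 0.204, 0.075 and 0.427). Without the 2 libraries farthest from the median of Krt15, r was 0.98, 0.97 and -0.83. Joint variation was also seen outside these neighbours: Krt19 and Krt8, on different chromosomes, gave an r of 0.69 in control, 0.86 with shRNF185.1 and 0.91 with shRNF185.3 (exact permutation p 0.135, 0.0319 and 0.0111, adjusted 0.186, 0.0719 and 0.0333), rho of 0.60, 0.77 and 0.94 (exact permutation p 0.242, 0.103 and 0.0167, adjusted 0.335, 0.185 and 0.075), and an r of -0.32, 0.94 and 0.94 without the 2 farthest libraries. A batch holds 2 libraries of a group, too few for a value within it, and both libraries of control in batch 2 were high while both of shRNF185.1 in batch 2 were low. None of the 75-base windows of these 3 genes occurs in another gene (0%). Krt14, 54.5 kb away, gave an r with Krt19 of -0.82 in control and -0.72 with shRNF185.1 (exact permutation p 0.0583 and 0.115, adjusted 0.0955 and 0.173), with rho at -0.83 and -0.54 (exact permutation p 0.0583 and 0.297, adjusted 0.131 and 0.382), and without the 2 farthest libraries the r was -0.67 and 0.22. With shRNF185.3 that r was -0.44 and rho -0.20 (exact permutation p 0.39 and 0.714, adjusted 0.436 and 0.714), and r was 0.15 without the 2 farthest.

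**Figure D3:**
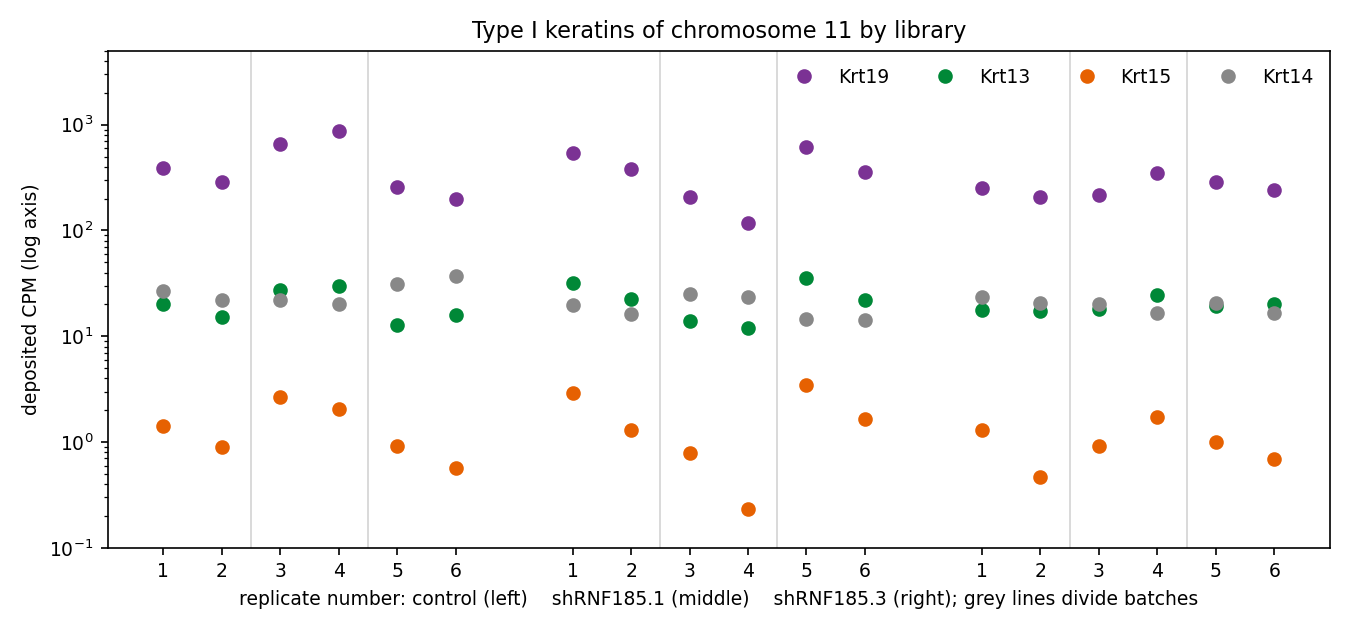
Deposited CPM (log axis) of Krt19, Krt13, Krt15 and Krt14 by replicate number in control, shRNF185.1 and shRNF185.3. Each point is a library. Krt19, Krt13 and Krt15 are high together in control batch 2 (replicates 3 and 4) and low together in shRNF185.1 batch 2, where Krt19 was 209 and 117 CPM.

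Vim did not change beyond the spread between libraries. Its lowest, median and highest values were 2750, 3188 and 3716 CPM in control, 3222, 3260 and 3606 CPM with shRNF185.1, and 3095, 3385 and 3555 CPM with shRNF185.3. All hairpin libraries lay within the control range. The log2 fold change for shRNF185.1 was 0.06 (adjusted p 0.486), and for shRNF185.3 it was 0.07 (adjusted p 0.454), and 2 standard errors either side spanned -0.06 to 0.19 and -0.06 to 0.20. The ratio of Vim to the 9 keratins per exonic length ranged from 0.506 to 0.705 in control, from 0.717 to 1.23 with shRNF185.1 and from 0.947 to 1.18 with shRNF185.3, so every hairpin library was above every control. The ratio is a description with no test, and its level depends on the length taken for Vim. The separation of every library was seen with exonic lengths. With the principal transcript length of each member the group means kept their order, but a library of shRNF185.1 fell below the highest control.

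**Figure D4:**
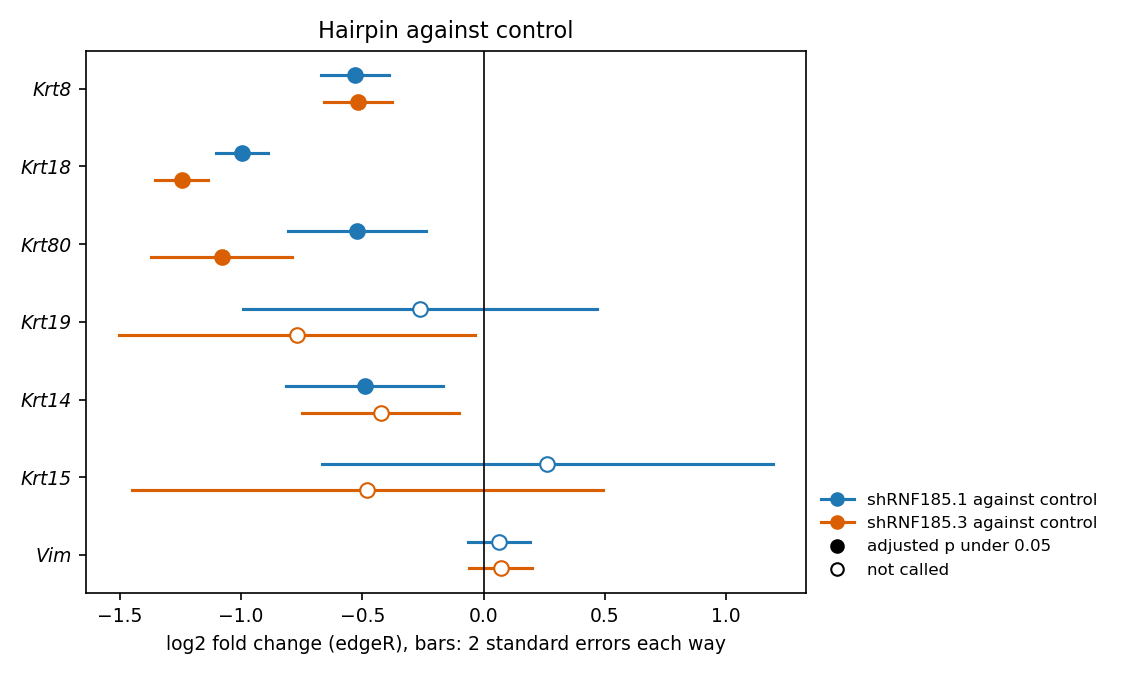
Log2 fold change of the 7 tested members with each hairpin against control (horizontal axis), with 2 standard errors each way. Filled points passed an adjusted p of 0.05. Krt8, Krt18 and Krt80 lie left of 0 with both hairpins, and Vim lies at 0.06 and 0.07.

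A direct comparison of shRNF185.3 with shRNF185.1 asked where their responses differ. Of the 7 tested members 2 differed, both lower with shRNF185.3, where 14.7% of all genes were called, 7.72% higher and 6.94% lower. Krt18 was lower by a log2 difference of -0.25 (SE 0.05, adjusted p 0.00331) and Krt80 by -0.56 (SE 0.15, adjusted p 0.0139), and in both genes all 6 libraries of shRNF185.3 lay below all 6 of shRNF185.1, as the ranges of 8.25% of all genes did in either direction. Neither call held without batch 1, at -0.26 for Krt18 (adjusted p 0.0571) and -0.54 for Krt80 (adjusted p 0.130). Nor did either hold without batch 2, at -0.22 (adjusted p 0.106) and -0.47 (adjusted p 0.159). Both estimates kept their direction in these fits, which hold fewer libraries. Without batch 2, Krt19 and Krt15 were called lower with shRNF185.3 than with shRNF185.1 (-0.94, adjusted p 0.0130; -1.44, adjusted p 0.0334). Krt8 differed by 0.01 (adjusted p 0.953), within -0.13 to 0.15 at 2 standard errors, and Vim by 0.01 (adjusted p 0.979), within -0.12 to 0.13. Rnf185 was at 5.81 ± 0.582 and 5.80 ± 0.546 CPM with the hairpins (adjusted p 0.997), with a log2 difference within -0.15 to 0.15 at 2 standard errors.

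Other keratins were few. Of 45 further keratin genes 4 passed the filter, and 1 of them was called with each hairpin, a share near the 28.9% and 27.3% of all genes. Krt10, a type I keratin of differentiating epidermis, was at 5.21 ± 0.117 CPM in control (SD, n = 6), 3.83 ± 0.126 under shRNF185.1 and 4.77 ± 0.479 under shRNF185.3, a log2 fold change of -0.45 (adjusted p 0.000110) and -0.12 (adjusted p 0.206). Krt79 was at 1.16 ± 0.446, 0.707 ± 0.173 and 0.400 ± 0.178 CPM, a log2 fold change of -0.71 (adjusted p 0.0604) and -1.52 (adjusted p 0.000745). Krt13 and Krt16 were not called with either. These 4 were chosen for naming after their values were seen.

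Among 14 other intermediate filament genes 7 were tested, and the nuclear lamin gene Lmna was at 1199 ± 87.6 CPM in control with log2 fold changes of 0.07 and 0.09 (adjusted p 0.466 and 0.325). Nefl, a neurofilament subunit, rose from 0.643 ± 0.551 CPM to 2.76 ± 0.969 and 2.48 ± 0.684 CPM, or 2.02 and 1.86 on the log2 scale (adjusted p 0.000610 and 0.00139). With shRNF185.1 1 of the 7 rose and 1 fell (Lmnb2, -0.44, adjusted p 0.000222), and with shRNF185.3 2 rose, Nefl and Prph (0.55, adjusted p 0.0336), shares near the 28.9% and 27.3% called over all genes. The call of Prph was lost with batch as a covariate, with no filter, and without batch 1 or batch 3. The median was 0.08 and 0.20.

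Keratin filaments are anchored at desmosomes by plakins, plakoglobin and plakophilins. The list here took in these, plakins not confined to desmosomes, and desmosomal membrane proteins. Of 14 such genes 12 were tested: with shRNF185.1 5 fell and 3 rose (median -0.41), and with shRNF185.3 4 fell and 0 rose (median -0.29), against a median over all genes of -0.02 and shares called of 28.9% and 27.3%, of which 14.3% and 13.1% lower. Perp, a desmosomal membrane protein, fell from 22.7 ± 5.89 CPM in control to 4.05 ± 1.25 and 4.21 ± 0.812 CPM (log2 fold change -2.49 and -2.43, adjusted p 2.46e-08 and 4.00e-08). Jup, which encodes plakoglobin, fell from 77.3 ± 16.2 to 38.1 ± 9.54 and 33.3 ± 5.14 CPM (log2 fold change -1.02 and -1.21, adjusted p 8.58e-05 and 1.53e-05). Dsp, which encodes desmoplakin, the plakin that ties keratin to the desmosome, fell from 1.70 ± 0.876 to 0.620 ± 0.335 and 0.444 ± 0.205 CPM (-1.44 and -1.93, adjusted p 0.00749 and 0.00127). Pkp3, a plakophilin, fell from 2.44 ± 0.339 to 1.45 ± 0.278 and 1.59 ± 0.243 CPM (-0.74 and -0.62). With shRNF185.1 3 plakin genes went the other way, and these were chosen for naming after their values were seen: Plec rose by 0.31 (adjusted p 0.0149), Dst by 0.50 (adjusted p 0.000860) and Ppl by 1.027 (adjusted p 9.65e-08). With shRNF185.3 their values were 0.24, 0.20 and 0.04, none of them called (adjusted p 0.0661, 0.154 and 0.757). With shRNF185.1 the calls of Dsp and Dst were lost without batch 1, and that of Plec without batch 2, without batch 3, and with the replicate block and GC offset together.

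Transcription and splicing factors that act on keratin and vimentin genes moved in both directions. Of 20 listed 18 were tested: with shRNF185.1 6 rose and 2 fell (median 0.16), and with shRNF185.3 7 rose and 3 fell (median 0.13), where 28.9% and 27.3% of all genes were called. Snai2, a repressor that binds E-boxes, rose from 9.03 ± 0.862 CPM to 16.6 ± 1.31 and 21.1 ± 2.84 CPM (log2 fold change 0.88 and 1.23, adjusted p 7.8e-07 and 1.81e-08). Zeb1 and Zeb2, repressors of the same motif, rose by 0.24 and 0.53 with shRNF185.1 (adjusted p 0.0118 and 0.000572) and by 0.26 and 0.34 with shRNF185.3 (adjusted p 0.00832 and 0.0173). Elf3, an epithelial ETS factor, rose from 12.2 ± 0.792 to 21.7 ± 0.925 and 23.9 ± 1.63 CPM (0.83 and 0.97), and Trp63, the p63 factor of basal cells, from 2.78 ± 0.696 to 4.32 ± 1.10 and 4.68 ± 1.19 CPM (0.64 and 0.76, adjusted p 0.0195 and 0.00702). Esrp2, an epithelial splicing regulator, fell from 5.75 ± 1.25 to 3.57 ± 0.612 and 2.89 ± 0.547 CPM (-0.69 and -0.99), and Klf5, a factor of epithelial cells, fell by 0.51 and 0.69 on the log2 scale (adjusted p 0.00229 and 0.000204). Called with 1 hairpin were Fosl1, an AP-1 subunit (0.19 with shRNF185.1, adjusted p 0.0188), and, with shRNF185.3, Snai1 (0.32, adjusted p 0.00448), Twist1 (0.75, adjusted p 0.0146) and Twist2 (-0.28, adjusted p 0.0269). With shRNF185.1 calls were lost for Trp63, Zeb1, Esrp2 and Fosl1 without batch 1, for Trp63 and Zeb1 without batch 3, for Fosl1 without batch 2, and for Trp63 with the libraries of a group and batch summed. With shRNF185.3 they were lost for Zeb2, Twist1 and Twist2 without batch 1, for Trp63 and Zeb1 without batch 2, and for Zeb1, Zeb2, Snai1 and Twist2 without batch 3. Zeb1, Zeb2, Klf5, Fosl1, Snai1, Twist1 and Twist2 were chosen for naming after their values were seen.

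**Figure D5:**
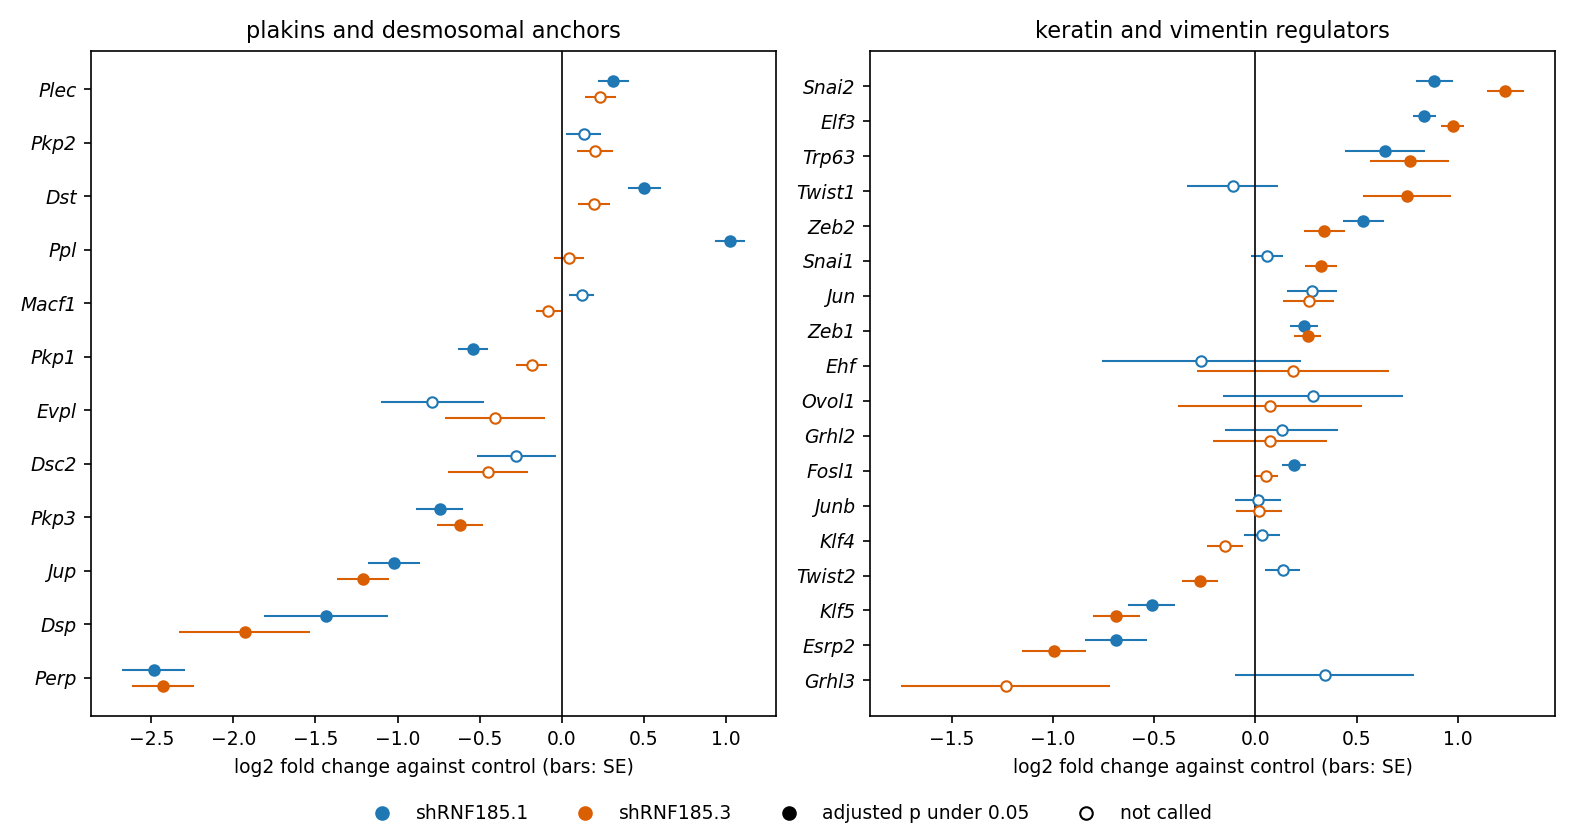
Log2 fold change with its standard error against control for the tested plakins and desmosomal genes (left) and for regulators (right), for both hairpins. Filled points passed an adjusted p of 0.05. Perp, Dsp, Jup and Pkp3 are filled and left of 0 with both hairpins, and Snai2, Elf3, Trp63, Zeb1 and Zeb2 are filled and right of 0.

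Among 9 tested genes for kinases, ligases, chaperones and partners of keratin, 1 rose and 2 fell with shRNF185.1 and 1 rose and 3 fell with shRNF185.3. Of all genes 28.9% and 27.3% were called, 14.3% and 13.1% lower. Hspb1, a small heat shock protein that associates with keratin filaments, rose from 36.2 ± 5.40 CPM to 59.0 ± 7.34 and 63.1 ± 4.99 CPM (0.70 and 0.80, adjusted p 2.19e-05 and 5.27e-06). Dnajb6, a chaperone that binds Krt18, fell from 153 ± 13.2 to 97.1 ± 3.89 and 135 ± 7.43 CPM (-0.66 and -0.17, adjusted p 5.08e-08 and 0.0215), and Ywhaz, a 14-3-3 protein, fell by 0.20 and 0.19 on the log2 scale (adjusted p 0.0140 and 0.0206). With shRNF185.3 both falls lost their call with library size alone, without batch 1 and without batch 3, and Dnajb6 also without batch 2; with shRNF185.1 Ywhaz lost it without batch 2 and without batch 3. Stub1, a ubiquitin ligase that acts on misfolded keratin, was at -0.02 and 0.07 (adjusted p 0.828 and 0.296).

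The genes whose pattern over the 18 libraries was most like that of Krt8 were Ank, which exports pyrophosphate (Pearson r 0.95), 2010300C02Rik (0.95) and Arhgef5, a guanine nucleotide exchange factor (0.95). Those most like Vim were Tubb6, a beta tubulin (0.95), Adprh (0.93) and Cntrob (0.90), all 3 without a call against control. These r values are over libraries that share groups and batches and are descriptions. Ank fell with both hairpins, from 386 ± 72.9 CPM to 211 ± 40.1 and 194 ± 16.8 CPM (-0.87 and -0.99).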

How the data were processed

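RNA of 18 MPC3 libraries was sequenced, and the authors deposited 2 tables. The first holds estimated counts per gene that the authors deposited after ComBat-Seq, per the name of the table; 0.466% of values (3998) are not whole, and all were rounded here. The second holds CPM, a normalised signal that the authors deposited for 15386 genes and whose sum per library runs from 969986 to 1026394. Per the submitters' processing notes cutadapt 2.3, STAR 2.7.0d, RSEM 1.3.1 and the build mm10 were used. Whether the batch adjustment was told the groups is not given in the sources used here. Whole counts had been foreseen in the planning; the same count test was run on the rounded values.

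Counts were tested in R 4.3.3 with edgeR 4.0.16: filterByExpr with a minimum count of 10 (14309 genes), TMM scaling, a mean per group over all 18 libraries, the quasi-likelihood F test and Benjamini-Hochberg adjustment over all genes. A standard error is the absolute fold change over the root of F. DESeq2 1.42.0, limma 3.58.1 and other settings of scaling, filter, offset, block and batch were alternatives, and the test was first run on simulated counts with known changes. Symbols matched 99.1% of identifiers, and positions and lengths are those of GENCODE M21. CPM of Krt5 and Krt7, which the CPM table does not hold, is the count over the library size that the deposited tables imply. Within-batch log2 differences use CPM plus 0.1.

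Members and lists were chosen with earlier results of these data known. All members are named, then from each list up to 4 genes called with both hairpins, ranked by the smaller change, and the 3 genes most correlated with Krt8 and with Vim. Others were chosen after their values were seen. Some marker genes are not reported here.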

Additional observations from a re-analysis of the deposited data

Results flagged for a closer look

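Among 21 groups of 6 values (7 tested members in 3 groups), none held a library too far from its nearest neighbour by Dixon's criterion (0 of 21, where chance gives about 1 in 20). When the hairpins were tested against each other, 2 members differed. Krt18 gave a log2 difference of -0.25 (shRNF185.3 minus shRNF185.1, edgeR adjusted p 0.00331) and Krt80 one of -0.56 (edgeR adjusted p 0.0139), with all 6 libraries of shRNF185.3 lower in both, while Rnf185 itself was at 5.80 and 5.81 CPM.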

How the results depend on the processing

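Krt8 and Krt18 were called lower with both hairpins in all 14 alternatives, at -0.61 to -0.40 and -0.57 to -0.46 for Krt8 and -1.02 to -0.96 and -1.27 to -1.23 for Krt18. Krt80 was called in 12 of 14 with shRNF185.1 and in 14 with shRNF185.3, and Vim in 0 of 14 with either. Replicate numbers carried some structure within a batch. Between groups, deviations from the group mean in same-numbered libraries had a mean r of -0.01 over 18 pairs. For libraries of the same batch with another number it was -0.43 over 18 pairs, and for other batches 0.11 over 72 pairs. The main fit had no term for the replicate number. With the replicate number as a block 3, 3 and 2 members were called in the comparisons of shRNF185.1, of shRNF185.3 and between hairpins, and 3811, 3578 and 1976 genes in all; Krt14 with shRNF185.1 lost its call (-0.49, edgeR adjusted p 0.0629), also with a GC and length offset added (adjusted p 0.0826) and with the libraries of a group and batch summed (adjusted p 0.161). With DESeq2, Krt14 was called with shRNF185.3 as well (-0.42, adjusted p 0.0400).

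Without batch 1, 2207, 2120 and 753 genes were called in the 3 comparisons, against 4141, 3906 and 2098; without batch 2, 5119 with shRNF185.1 and 1208 between hairpins; without batch 3, 2501 with shRNF185.3. The cause was not tested. Members called with shRNF185.1 numbered 2 without batch 1 and 2 without batch 3 (Krt8 and Krt18), and 6 without batch 2; between hairpins 0 were called without batch 1 by edgeR, where Krt18 and Krt80 had adjusted p 0.0571 and 0.130. Krt19 with shRNF185.1 reversed without batch 2, to 0.74; the cause was not tested.

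Counts called in the lists, with shRNF185.1: other keratins 2 if batch 2 or batch 3 was left out, with no filter, with the GC and length offset and with summed libraries; regulators 4 without batch 1. With shRNF185.3: other keratins 3 without the filter, 2 with limma on CPM and 3 with summed libraries; other intermediate filament genes 1 if batch 1 or batch 3 was left out, with no filter, or with batch as a covariate; regulators 6 without batch 3; keratin partners 2 with library size alone, 1 without batch 1, and 2 if batch 2 or batch 3 was left out. With principal transcript lengths, chosen after seeing the data, Vim over keratins was 1.28, 1.99 and 2.16 in control, shRNF185.1 and shRNF185.3, and type I over type II was 0.653 with shRNF185.3. With those lengths not every library of shRNF185.1 was above every control in Vim over keratins. Depth limits Krt5, Krt7 and Krt17, and the authors' batch adjustment may make the spread between libraries too small.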

Other observations

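Krt19, chosen after its values were seen, shared its pattern over the 18 libraries most closely with Il33, an alarmin cytokine (Pearson r 0.97), Egln3, a prolyl hydroxylase that acts on hypoxia-inducible factors (0.96), and Ndfip1 (0.95). Il33 was at 48.8 ± 35.1 CPM in control, 37.5 ± 23.0 with shRNF185.1 and 25.1 ± 7.46 with shRNF185.3, and Egln3 at 169 ± 91.2, 151 ± 77.2 and 111 ± 16.7 CPM (SD, n = 6), so both had, as Krt19 did, their smallest spread with shRNF185.3. None of these genes was called with either hairpin.

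Krt18, chosen in the same way, was closest in pattern to Rnf185 itself among all genes tested (0.97). Next came Nptxr (0.96) and Ripk4, a kinase of epithelial differentiation (0.96), which fell from 9.67 ± 1.66 CPM in control to 2.45 ± 0.511 with shRNF185.1 and 1.16 ± 0.245 with shRNF185.3, and which differed between the hairpins in the same direction as Krt18 (log2 difference -1.09, edgeR adjusted p 0.000184). These r values are descriptions over libraries that share their groups.

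Among the marker genes of other lists, Cdh1, the epithelial cadherin, fell from 35.1 CPM to 9.30 and 7.99 CPM (log2 fold change -1.91 and -2.13, edgeR adjusted p 1.37e-05 and 4.85e-06). The prostate factors Hoxb13 and Foxa1 were at 0.18 and 0.12 with shRNF185.1 (edgeR adjusted p 0.267 and 0.415) and at 0.06 and 0.08 with shRNF185.3 (edgeR adjusted p 0.732 and 0.611).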
